A study of Homo sapiens with 8 samples.

Results

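The 10 genes described here are ligands and feedback genes of bone morphogenetic protein (BMP) and transforming growth factor beta (TGF-beta) signalling: BMP7, BMP2, BMP4, TGFB2, INHBA, ID1, ID2, ID3, SMAD6 and SMAD7. They were taken by name, as the rows of the count table whose identifier equals a listed symbol. All 10 were found among 15852 listed genes, and 9 of them were among the 11841 genes with enough counts to be tested. The exception was BMP4.

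The cells were KYSE150, a human line established from squamous cell carcinoma of the esophagus, and their RNA was sequenced in bulk. The 4 BOLA3-L knockdown libraries carry the genotype label ShBOLA3-L, which names the long isoform of BOLA3, and the 4 control libraries carry the genotype label Control; both groups are labelled as untreated. The study asks what depends on the BOLA3 isoform that includes exon 3. The labels do not say whether knockdown cells were 1 clone or a pool, what construct the controls received, or whether libraries of a group came from separate cultures. The p-values therefore weigh a difference only against the spread between these libraries. They do not show whether it would recur in other cultures or clones.

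BMPs, TGF-betas and activins are secreted as dimers and are cut from larger precursors. They bind pairs of type I and type II receptor kinases, which phosphorylate receptor-regulated SMAD proteins that enter the nucleus with SMAD4. BMP receptors mainly act through SMAD1, SMAD5 and SMAD9 and TGF-beta and activin receptors through SMAD2 and SMAD3. ID1, ID2 and ID3 are classical BMP target genes whose products hold back basic helix-loop-helix transcription factors, and SMAD6 and SMAD7 are induced by the pathway and inhibit its receptors. In squamous epithelium these signals are known for restraining growth and steering differentiation.

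The promoters of the feedback genes are shown because SMAD proteins are known to bind them. Each sequence is the 250 bases before a gene's start in RefSeq, on GRCh38.p14, read 5′ to 3′ on the gene's own strand. Capitals mark matches to the SMAD box CAGAC (reverse complement GTCTG) and to the palindrome GTCTAGAC. Entries were found for 8 of the 10 genes, all but BMP7 and BMP2.
SMAD6, chr15:66701986-66702235, plus strand: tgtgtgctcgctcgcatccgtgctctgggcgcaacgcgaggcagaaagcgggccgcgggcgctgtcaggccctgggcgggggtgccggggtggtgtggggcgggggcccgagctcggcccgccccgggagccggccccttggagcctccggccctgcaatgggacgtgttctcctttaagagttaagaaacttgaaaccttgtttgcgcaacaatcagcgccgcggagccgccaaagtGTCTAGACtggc
SMAD7 (most upstream listed start), chr18:48950966-48951215, minus strand: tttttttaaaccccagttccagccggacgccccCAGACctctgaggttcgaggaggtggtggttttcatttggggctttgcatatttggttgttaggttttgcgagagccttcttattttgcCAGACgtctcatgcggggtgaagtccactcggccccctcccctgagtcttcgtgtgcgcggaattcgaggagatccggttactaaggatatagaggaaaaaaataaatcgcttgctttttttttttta
ID1, chr20:31605039-31605288, plus strand: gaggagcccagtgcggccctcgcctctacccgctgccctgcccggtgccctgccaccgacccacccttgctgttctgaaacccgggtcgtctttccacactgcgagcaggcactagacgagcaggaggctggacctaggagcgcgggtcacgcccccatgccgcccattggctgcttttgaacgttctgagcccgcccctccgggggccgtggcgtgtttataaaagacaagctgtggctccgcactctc
ID2, chr2:8681806-8682055, plus strand: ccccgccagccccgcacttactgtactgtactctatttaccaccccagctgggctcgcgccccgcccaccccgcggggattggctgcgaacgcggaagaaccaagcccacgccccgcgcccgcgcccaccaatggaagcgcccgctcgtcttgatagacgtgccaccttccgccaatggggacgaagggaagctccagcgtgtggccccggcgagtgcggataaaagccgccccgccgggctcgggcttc
ID3, chr1:23559502-23559751, minus strand: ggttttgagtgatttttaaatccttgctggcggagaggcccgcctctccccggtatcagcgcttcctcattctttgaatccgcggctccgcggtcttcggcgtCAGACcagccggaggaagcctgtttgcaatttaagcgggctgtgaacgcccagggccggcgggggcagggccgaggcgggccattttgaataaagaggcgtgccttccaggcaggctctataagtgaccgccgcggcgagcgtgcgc

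The SMAD6 window held the palindrome GTCTAGAC 1 time and no SMAD box. That palindrome occurred in 62 of 34788 RefSeq promoter windows of the same length (0.178%). The SMAD7 window shown held the SMAD box 2 times, and those of its 2 other listed starts, not printed, held it 1 and 0 times. The ID3 window held it 1 time, whereas the ID1 and ID2 windows held none. The SMAD box was found in 38.0% of all windows. Both strands were searched for each motif, the palindrome and the SMAD box share no overlapping match in these 5 windows, and the GC-rich element GGCGCC, found in 16.4% of all windows, was in none of the 5. A match describes letters in a window and is not a binding site measured here. Sequence outside the windows was not searched, and whether a match bears on a gene's change was not tested.

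Libraries of the BOLA3-L knockdown group held 31178036 to 35147860 counts and those of the control group 31215897 to 33195901, so that 3 counts correspond to 0.0851 to 0.0969 CPM (counts-per-million, scaled by TMM factors). BOLA3, a mitochondrial iron-sulfur cluster protein and the targeted gene, had 6.06, 6.64, 6.33 and 7.29 CPM in BOLA3-L knockdown replicates 1 to 4, against 21.6, 19.1, 20.5 and 21.8 CPM in control replicates 1 to 4. It fell by 1.66 on the log2 scale (SE 0.0821, edgeR adjusted p 6.9e-11) to 31.7% of the control mean; counts are per gene, so isoforms are not separated. The first principal component of log2 CPM (46.5% of variance) separated the groups, and the next (14.4%) put BOLA3-L knockdown replicate 1 at 20.1, apart from -10.1 to -4.81 in the other knockdown libraries. Compared with the other knockdown libraries, replicate 1 was higher by a median of 0.17 (log2) among the genes with the lowest GC content (up to 38.5% GC) and lower among those with the highest (from 61.7% GC, -0.28). All 7 epithelial markers were tested and 6 of them fell. Summed over the 7, levels were 3138 to 3518 CPM in the BOLA3-L knockdown group and 4817 to 4849 CPM in the control group. Of 7 fibroblast markers 2 were tested and both fell (summed 4.53 to 7.26 CPM in knockdown and 9.94 to 14.8 CPM in control libraries), with COL1A2 and DCN at or under 3 counts in every library. The endothelial list held 1 tested marker, CDH5, which rose (summed 1.87 to 2.44 CPM in knockdown and 0.880 to 1.82 CPM in control libraries, PECAM1 at or under 3 counts in every library), and the leukocyte list held 1, CD68, which did not pass the test (summed 73.9 to 79.6 CPM in knockdown and 77.6 to 84.4 CPM in control libraries, CD3E at or under 3 counts in every library).

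In the BOLA3-L knockdown group, BMP7 fell to 35.6% of its control level and BMP2 to 48.4%, TGFB2 fell slightly and SMAD6 rose. INHBA, ID1, ID2, ID3 and SMAD7 did not pass the test, and BMP4 had too few counts to be tested. Thus 3 of the 9 tested genes fell and 1 rose, where 15.6% of all 11841 tested genes fell and 15.0% rose (edgeR, adjusted p under 0.05 over all tested genes). The same 4 genes had no overlap in CPM between the groups, as did 30.2% of all tested genes. The median log2 change of the 9 genes was -0.14, beside 0.00 over all tested genes. Among all called genes the median absolute log2 change was 0.24, so the changes of BMP7 and BMP2 were larger than most and that of TGFB2 was close to the middle.

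**Figure D1:**
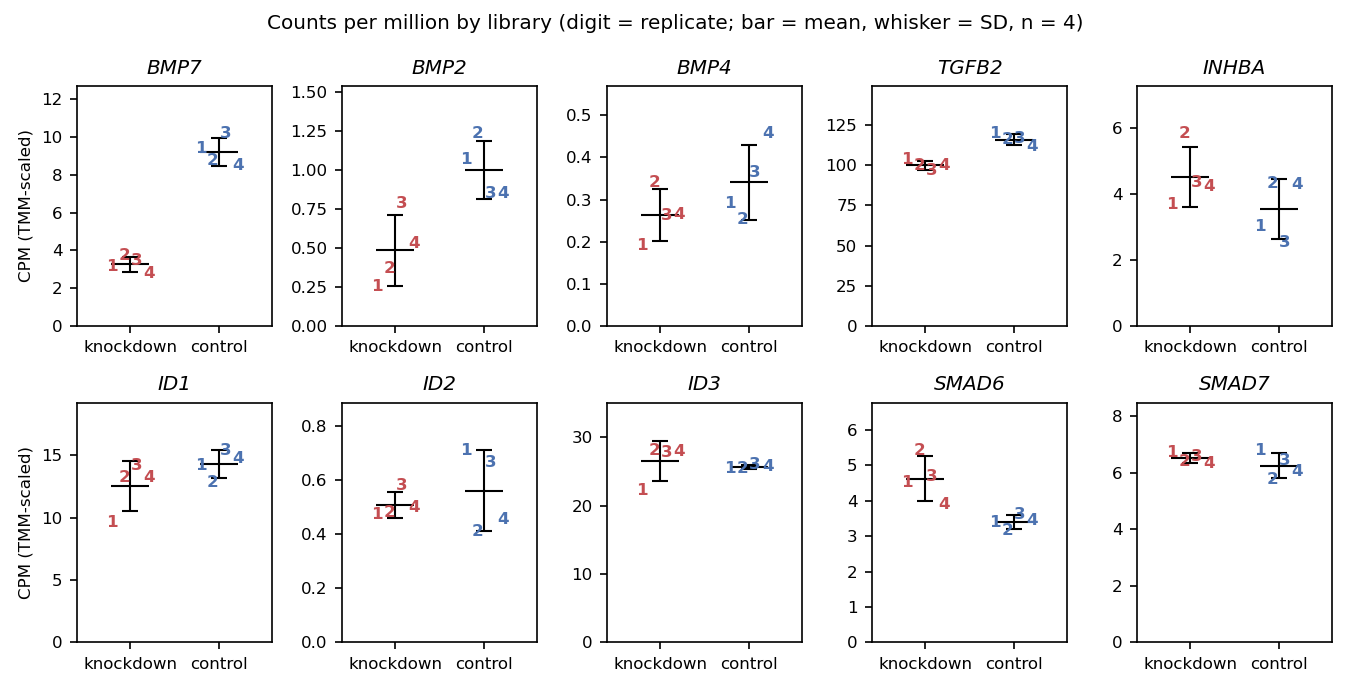
CPM (vertical axes, scaled by TMM) of the 10 genes in the 4 BOLA3-L knockdown libraries (red, left) and the 4 control libraries (blue, right); digits are replicate numbers, long bars are means and whiskers are SD. BMP7, BMP2 and TGFB2 lie lower and SMAD6 higher in every knockdown library than in any control library, while the groups of the other 6 genes overlap.

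BMP7, a BMP ligand known for its part in kidney and eye development and for opposing TGF-beta signals in epithelia, is Entrez gene 655 (chromosome 20, 57168753 to 57266641, GRCh38.p14). Its values were 3.14, 3.71, 3.46 and 2.79 CPM in BOLA3-L knockdown replicates 1 to 4, against 9.37, 8.78, 10.2 and 8.51 CPM in control replicates 1 to 4. The highest knockdown library was below the lowest control library by a wide margin, and all 4 knockdown libraries were low. The means were 3.28 ± 0.399 CPM in the knockdown group and 9.21 ± 0.734 CPM in the control group (SD, n = 4 each), from 95 to 131 and 278 to 335 counts per library. BMP7 fell by 1.49 on the log2 scale (SE 0.117, edgeR adjusted p 2.9e-08). It was the 28th largest fall among the 11841 tested genes. An exact permutation test (two-sided, 70 ways to split the 8 libraries) gave p = 0.0286, the smallest it can give with 4 against 4. In bulk RNA, fewer cells that express a gene and less RNA per cell cannot be told apart. Of the 7 epithelial markers, 6 fell in the same libraries, by log2 changes from -1.55 (KRT6A) to -0.09 (CDH1), and EPCAM rose (0.21). The summed levels are given above, and the part of these markers in the change of BMP7 was not tested.

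BMP2, a ligand with a leading role in bone and heart development, is Entrez gene 650 (chromosome 20, 6767686 to 6780246). It had 0.254, 0.369, 0.784 and 0.529 CPM in BOLA3-L knockdown replicates 1 to 4, against 1.07, 1.23, 0.850 and 0.851 CPM in control replicates 1 to 4. Knockdown replicate 3 came close to control replicates 3 and 4, and replicate 1 was the lowest of all 8. These values rest on 8 to 27 counts per knockdown library and 28 to 39 counts per control library. BMP2 fell by 1.03 on the log2 scale (SE 0.311, edgeR adjusted p 0.0169), with means of 0.484 ± 0.230 CPM in knockdown and 1.00 ± 0.185 CPM in control libraries (SD, n = 4 each). The call was lost without control replicate 2 (adjusted p 0.068) and also when knockdown replicate 2 was left out (adjusted p 0.0583), and over the 16 alternatives that test the gene the adjusted p ran from 0.00544 to 0.068.

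BMP4, a close relative of BMP2 that acts in early mesoderm and gut patterning, is Entrez gene 652 (chromosome 14, 53949736 to 53956891). Its counts were 6, 12, 9 and 9 in the 4 knockdown libraries, against 9, 8, 12 and 15 in the 4 control libraries. The groups overlapped, at 0.190 to 0.340 CPM in the knockdown group and 0.253 to 0.456 CPM in the control group. With no filter on low counts the fitted log2 difference was -0.36 (SE 0.424, edgeR adjusted p 0.579), so at this depth a difference of that size was not detectable. The exact permutation test gave p = 0.2.

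Of 13 BMP ligands listed, 9 were in the table and 4 were tested. Besides BMP7 and BMP2 these were BMP8B, which rose (2.95 ± 0.423 CPM in knockdown and 1.91 ± 0.235 CPM in control libraries, log2 change 0.63, edgeR adjusted p 0.00792), and BMP5, which did not pass (log2 change 0.63, adjusted p 0.0997). Of the BMP8B transcript windows, 10% also occur in BMP8A, so reads of the pair may be split. Summed over the 9 ligands in FPKM, which scales counts to gene length and library total, the BMP ligand level was 1.49, 1.93, 1.98 and 1.66 in BOLA3-L knockdown replicates 1 to 4, against 3.18, 3.00, 3.33 and 3.08 in control replicates 1 to 4. The highest knockdown sum was below the lowest control sum. The mean sum was 1.77 FPKM in knockdown and 3.15 FPKM in control libraries. BMP7 is part of it, with means of 0.820 and 2.27 FPKM in the same order, so the lower sum is not a result separate from the fall of BMP7. BMP7 made up 46.6 ± 4.83% of the sum in the knockdown group and 72.1 ± 2.99% in the control group (SD, n = 4 each). It was the leading BMP ligand of the control cells by this measure. Its share was 42.1 to 52.9% in knockdown libraries, lower than in any control library (68.1 to 75.4%). The lower share, too, is not a result separate from the fall of BMP7.

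TGFB2, the TGF-beta isoform best known from heart, eye and palate development, is Entrez gene 7042 (chromosome 1, 218345336 to 218444619). It had 103.7, 99.6, 96.9 and 99.5 CPM in BOLA3-L knockdown replicates 1 to 4, against 119, 116, 116 and 111 CPM in control replicates 1 to 4. All knockdown libraries were below all control libraries, with a gap that was small beside the level. TGFB2 fell by 0.21 on the log2 scale (SE 0.0400, edgeR adjusted p 0.00052), with means of 99.9 ± 2.80 CPM in knockdown and 116 ± 3.32 CPM in control libraries (SD, n = 4 each). The transcript TGFB2-OT1 lies on the same strand and shares 1371 exon bases with TGFB2, and 26% of the TGFB2 windows of 75 bases also occur in it, so its reads cannot be separated from those of TGFB2 here. TGFB1 did not pass the test (85.4 CPM in knockdown and 84.0 CPM in control libraries, log2 change 0.02, adjusted p 0.74), nor did TGFB3 (1.25 and 1.61 CPM in the same order, log2 change -0.37, adjusted p 0.251). Of the 9 other tested genes of the TGF-beta ligand and latency list, 1 fell and none rose at this threshold. The gene that fell was ITGB6, whose integrin releases TGF-beta from its latent complex. It had 4.18 ± 0.323 CPM in knockdown and 6.89 ± 0.405 CPM in control libraries (log2 change -0.72, SE 0.112, adjusted p 8.3e-05). Of the ITGB6 windows, 17.3% also occur in AC092153.1, so reads of the pair may be split.

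INHBA, which encodes the subunit of activin A, is Entrez gene 3624 (chromosome 7, 41685114 to 41705406). It had 3.68, 5.81, 4.36 and 4.23 CPM in BOLA3-L knockdown replicates 1 to 4, against 3.01, 4.33, 2.52 and 4.28 CPM in control replicates 1 to 4. Knockdown replicate 2 was the highest of all 8 and control replicate 3 the lowest, and the groups overlapped. The fitted log2 difference was 0.36 (SE 0.181, edgeR adjusted p 0.146), with 4.52 ± 0.911 CPM in knockdown and 3.53 ± 0.913 CPM in control libraries (SD, n = 4 each). Without BOLA3-L knockdown replicate 1 it passed the test (log2 change 0.44, adjusted p 0.0276), and over the 19 alternatives the adjusted p ran from 0.0118 to 0.442. Among the 3 other tested activin-type ligands none passed at this threshold.

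The ID genes are classical BMP target genes, and none of them passed the test. Only RNA was measured, so the activity of BMP signalling itself is not known from these data. ID1, Entrez gene 3397 (chromosome 20, 31605289 to 31606510), had 9.64, 13.2, 14.2 and 13.3 CPM in BOLA3-L knockdown replicates 1 to 4, against 14.2, 12.8, 15.4 and 14.8 CPM in control replicates 1 to 4. Knockdown replicate 1 was low and the other 3 lay within the control range. The fitted difference was -0.18 on the log2 scale (SE 0.102, edgeR adjusted p 0.187), and without BOLA3-L knockdown replicate 1 it was -0.08 (adjusted p 0.455). The longest listed transcript of ID1 has 58.6% GC.

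ID3, Entrez gene 3399 (chromosome 1, 23557926 to 23559501), had 22.1, 28.0, 27.8 and 28.0 CPM in BOLA3-L knockdown replicates 1 to 4, against 25.4, 25.5, 26.0 and 25.6 CPM in control replicates 1 to 4. The other 3 knockdown libraries were above all controls and replicate 1 was below all of them. The fitted difference was 0.05 on the log2 scale (SE 0.0707, edgeR adjusted p 0.642), or 0.13 without BOLA3-L knockdown replicate 1 (adjusted p 0.0605). Relative to the other knockdown libraries, replicate 1 was lower in ID1 (-0.49 on the log2 scale), ID3 (-0.34), INHBA (-0.36), BMP4 (-0.47) and BMP2 (-0.93), and it deviated by -0.07 to 0.07 in BMP7, SMAD6, SMAD7 and TGFB2. In ID2 it deviated by -0.11. Transcript GC content is 57.2% for ID3, 39.1% for INHBA, 54.0% for BMP4, 52.1% for BMP2 and 53.3% for ID2. For the genes with small deviations it is 56.4% for BMP7, 58.9% for SMAD6, 58.7% for SMAD7 and 38.9% for TGFB2. The part of this library's GC trend in the deviations of these genes was not tested.

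ID2, Entrez gene 3398 (chromosome 2, 8682056 to 8684461), was low, at 0.476, 0.482, 0.581 and 0.50 CPM in BOLA3-L knockdown replicates 1 to 4, against 0.711, 0.410, 0.668 and 0.456 CPM in control replicates 1 to 4. The knockdown values all lay inside the control range. The fitted difference was -0.14 on the log2 scale, with an SE of 0.296 at these low counts (edgeR adjusted p 0.767). An antisense gene, ID2-AS1, overlaps 38 exon bases of ID2, and whether counting used strand is not given in the sources used here. ID4, the fourth gene of the family, had at most 1 count in a library and was not tested. Of the helix-loop-helix partners that ID proteins bind, TCF4 fell (5.27 ± 0.499 CPM in knockdown and 6.72 ± 1.07 CPM in control libraries, log2 change -0.35, adjusted p 0.0383), a call lost in 5 of the 8 fits that leave out a library (adjusted p up to 0.175, without control replicate 2). TCF3 (log2 change 0.06) and TCF12 (-0.04) did not pass.

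SMAD6, which preferentially inhibits BMP receptors, is Entrez gene 4091 (chromosome 15, 66702236 to 66782849). It had 4.50, 5.42, 4.68 and 3.88 CPM in BOLA3-L knockdown replicates 1 to 4, against 3.39, 3.16, 3.61 and 3.43 CPM in control replicates 1 to 4. Every knockdown library was above every control library, replicate 2 by the most and replicate 4 by little. SMAD6 rose by 0.44 on the log2 scale (SE 0.137, edgeR adjusted p 0.0195), with 4.62 ± 0.632 CPM in knockdown and 3.40 ± 0.187 CPM in control libraries (SD, n = 4 each). The call was lost without control replicate 2 (adjusted p 0.0562) and also when knockdown replicate 2 was left out (adjusted p 0.0815), and over 19 alternatives the adjusted p ran from 0.0104 to 0.0815.

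SMAD7, which inhibits both TGF-beta and BMP receptors, is Entrez gene 4092 (chromosome 18, 48919853 to 48950965). It had 6.72, 6.41, 6.56 and 6.32 CPM in BOLA3-L knockdown replicates 1 to 4, against 6.79, 5.75, 6.43 and 6.05 CPM in control replicates 1 to 4. The knockdown libraries all lay inside the control range. The fitted log2 difference was 0.06 (SE 0.102, edgeR adjusted p 0.714), with 6.50 ± 0.176 CPM in knockdown and 6.25 ± 0.453 CPM in control libraries (SD, n = 4 each). Whether SMAD6 and SMAD7 responded differently was not tested. In exact two-sided permutation tests of the single genes, BMP2, TGFB2 and SMAD6 gave the same smallest possible p of 0.0286 as BMP7, INHBA gave 0.229, ID1 0.171, ID2 and ID3 0.657 and SMAD7 0.371.

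**Figure D2:**
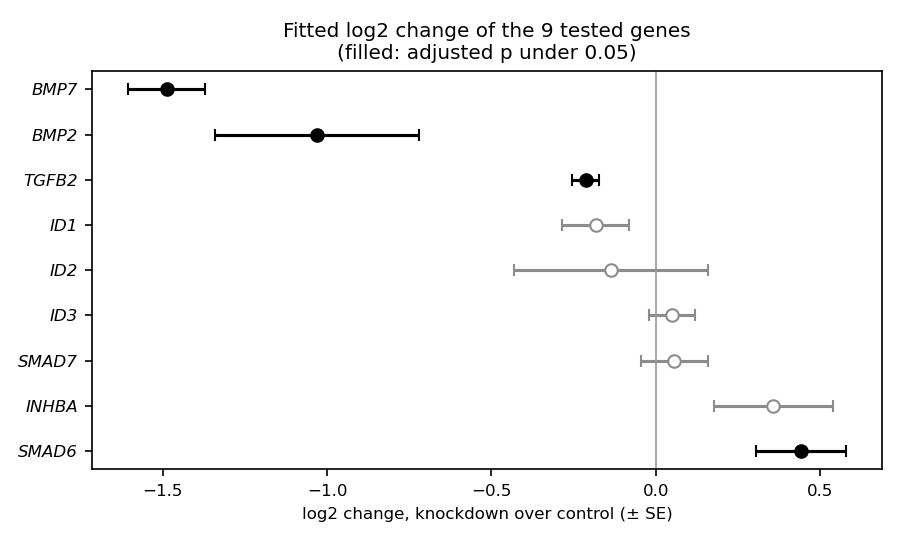
Fitted log2 change (horizontal axis, BOLA3-L knockdown over control) of the 9 tested genes with 1 SE to each side; filled points have an edgeR adjusted p under 0.05. BMP7 (-1.49), BMP2 (-1.03) and TGFB2 (-0.21) are filled to the left of 0 and SMAD6 (0.44) to the right, and ID2 and BMP2 carry the widest bars.

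The plot of fitted changes puts the 3 ligands that fell at one end and SMAD6 at the other, with the ID genes and SMAD7 between. BMP2 and ID2 have errors several times wider than TGFB2, which had the highest counts of the 10. Leaving out each library in turn kept the sign of all 9 tested genes, and the plot of fits with 1 library left out shows where it changed a call.

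**Figure D3:**
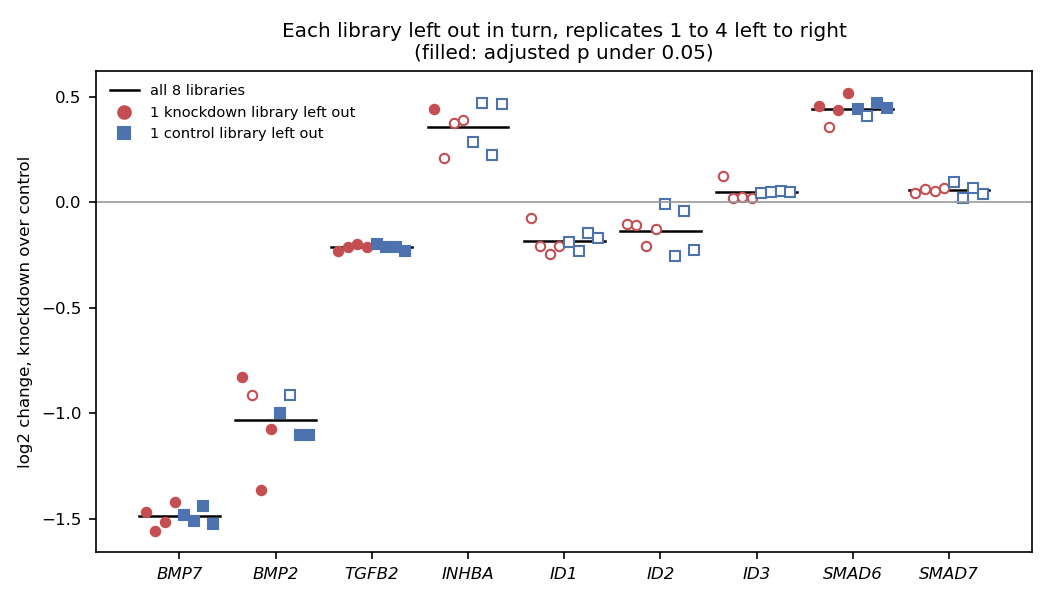
Fitted log2 change (vertical axis, BOLA3-L knockdown over control) of the 9 tested genes when 1 knockdown library (red circles) or 1 control library (blue squares) is left out, replicates 1 to 4 from left to right; black lines are the values with all 8 libraries, and filled symbols have an adjusted p under 0.05. BMP7 and TGFB2 are filled throughout, BMP2 and SMAD6 each have 2 open symbols, and INHBA has 1 filled symbol, without knockdown replicate 1.

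Levels can be set side by side between genes only per length, in FPKM. In the control group the order was ID3 (26.8 FPKM), TGFB2 (19.3), ID1 (14.4), BMP7 (2.27), SMAD7 (1.68), SMAD6 (0.443), INHBA (0.433), ID2 (0.429), BMP2 (0.280) and BMP4 (0.136). Neighbours whose control ranges overlapped were SMAD6 and INHBA, INHBA and ID2, and ID2 and BMP2, so their order is within the spread of the libraries. In the BOLA3-L knockdown group the values in the same gene order were 28.1, 16.9, 12.9, 0.820, 1.77, 0.610, 0.561, 0.395, 0.137 and 0.107 FPKM. The only change of rank was that of BMP7, which stood below SMAD7 in the knockdown group and above it in the control group. In the knockdown group the overlapping neighbours were BMP7 and SMAD6, SMAD6 and INHBA, and BMP2 and BMP4. The lengths behind these values are those the authors used, 1 per gene.

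**Figure D4:**
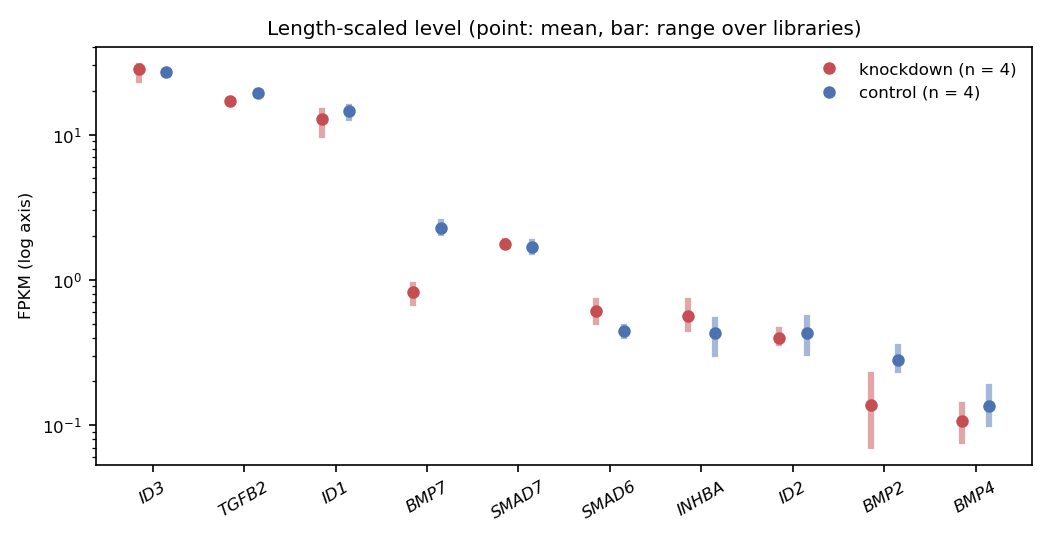
Length-scaled level in FPKM (vertical log axis) of the 10 genes in the BOLA3-L knockdown group (red, left of each pair) and the control group (blue, right of each pair); points are means and bars the range over 4 libraries. ID3, TGFB2 and ID1 stand above the rest in both groups, and BMP7 is the gene with the widest gap between its groups (0.820 in knockdown and 2.27 in control libraries).

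Other genes of the pathway were taken from 16 lists ordered by role. Of 125 such genes besides the 10, 111 were in the table and 85 were tested, of which 12 rose and 23 fell (median log2 change -0.03, beside 0.00 over all tested genes). The shares called over all tested genes were those given above, 15.0% for rises and 15.6% for falls.

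Receptors moved in both directions. TGFBR3, or betaglycan, the co-receptor that presents TGFB2 to its receptors, rose to 7.41 ± 0.537 CPM in knockdown libraries, against 2.47 ± 0.463 CPM in control libraries (SD, n = 4 each; log2 change 1.59, SE 0.138, edgeR adjusted p 1.0e-07). Endoglin (ENG), a co-receptor best known from endothelium, fell to 1.30 ± 0.203 CPM, against 3.01 ± 0.649 CPM in control libraries (log2 change -1.21, SE 0.191, adjusted p 1.1e-04). TGFBR2, the type II receptor of TGF-beta, fell by 0.29 on the log2 scale (132.9 CPM in knockdown and 162.6 CPM in control libraries, adjusted p 3.9e-05). ACVR2B, a type II receptor of activins and BMPs, rose by 0.20 (adjusted p 0.0169). The ACVR2B call was lost without control replicate 1 (adjusted p 0.0757) and without control replicate 2 (0.0678). It was also lost in limma on log2(FPKM + 1) with no minimum (adjusted p 0.0626). Among 5 tested type I receptors ACVR1 fell (log2 change -0.26, adjusted p 0.00255) and ACVR1B (0.17, adjusted p 0.0148) and BMPR1A (0.19, adjusted p 0.019) rose. The BMPR1A call was lost without control replicate 2 (adjusted p 0.0672) and also when knockdown replicate 2 was left out (adjusted p 0.0524). Of the BMPR1A transcript windows, 8.48% also occur in other genes. BMPR2 and TGFBR1 did not pass, with log2 changes of 0.07 and -0.03.

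Of 5 tested receptor-regulated and common SMADs, 4 fell and none rose at this threshold, with a median log2 change of -0.18. SMAD5 fell by 0.32 on the log2 scale (88.1 ± 9.32 CPM in knockdown and 109.8 ± 5.63 CPM in control libraries, edgeR adjusted p 6.2e-04) and SMAD1 by 0.29 (20.1 ± 2.26 and 24.6 ± 1.97 CPM in the same order, adjusted p 0.00939), both of the BMP branch. SMAD2 of the TGF-beta branch fell by 0.18 (96.3 ± 2.82 CPM in knockdown and 109.4 ± 2.16 CPM in control libraries, adjusted p 0.00167). In fits of log2 FPKM with limma, the call of SMAD1 was lost with no minimum (adjusted p 0.0773), and that of SMAD2 with a minimum of 0.5 FPKM (adjusted p 0.0619 and 0.0659 with a pseudocount of 1 and 0.1). The 4th of these genes to fall was SMAD3 (log2 change -0.12, adjusted p 0.0362), named after its values were seen. SMAD4, the partner common to both branches, did not pass (log2 change 0.01).

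Among extracellular antagonists 4 of the 14 in the table were tested. FST, which encodes the activin and BMP binding protein follistatin, fell to 8.96 ± 0.849 CPM in knockdown libraries, against 13.2 ± 0.811 CPM in control libraries (log2 change -0.56, SE 0.0879, edgeR adjusted p 1.1e-04). Its relative FSTL3 also fell (log2 change -0.21, adjusted p 0.0185). The FSTL3 call was lost without control replicate 3 (adjusted p 0.0533) and without control replicate 4 (0.055). It was also lost in limma on log2(FPKM + 1) with no minimum (adjusted p 0.0968). The BMP antagonists NOG and CHRD were among those with too few counts to be tested. Of 7 genes of proprotein processing, FURIN, a convertase of the ligand precursors, rose (log2 change 0.18, adjusted p 0.0174, up to 0.069 in the 4 fits without control replicate 1 or 3 or knockdown replicate 2 or 4). BMP1, a metalloprotease that cleaves procollagen and the antagonist chordin, fell (-0.22, adjusted p 0.00221), as did TLL2 of the same protease family (-0.43, adjusted p 0.0423, up to 0.15 when 1 library is left out). Of 12 intracellular and membrane inhibitors TGIF2 (-0.18) and NEDD4L (-0.15) fell and WWP1 (0.14) rose, and of 6 signal promoters RNF111 (-0.20) fell and ZFYVE9 (0.17) rose; the calls of WWP1 and ZFYVE9 were lost in 5 and 4 of the 8 fits that leave out a library.

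**Figure D5:**
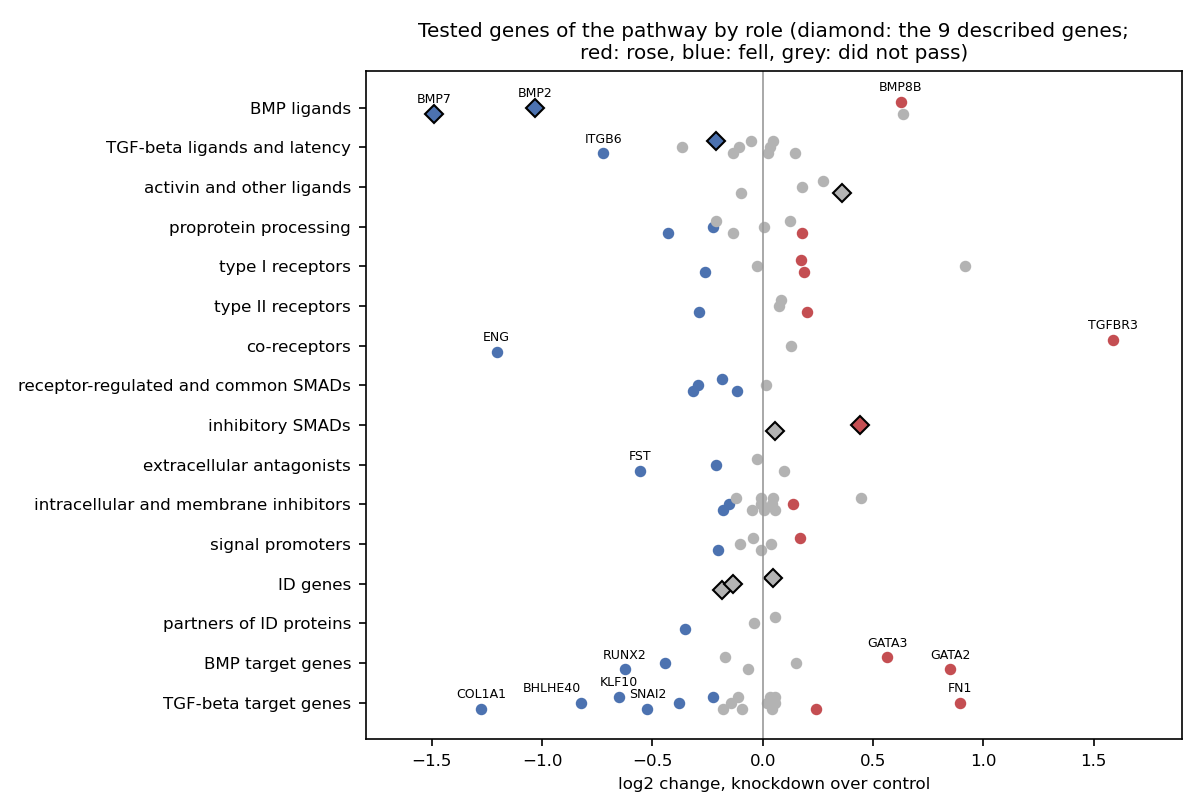
Log2 change (horizontal axis, BOLA3-L knockdown over control) of every tested gene of the 16 lists, 1 row per list; diamonds are the 9 tested genes described here, red points rose, blue points fell and grey points did not pass the test. Receptor-regulated SMADs lie mostly left of 0, receptors lie on both sides, and TGFBR3 (1.59) and BMP7 (-1.49) are the outermost points.

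Target genes did not move one way. Of 7 tested BMP target genes 2 rose and 2 fell. RUNX2, a transcription factor of bone formation, fell by 0.63 on the log2 scale (14.8 ± 0.628 CPM in knockdown and 22.8 ± 1.31 CPM in control libraries, edgeR adjusted p 1.2e-06), and the homeobox gene MSX2 fell by 0.44 (8.42 ± 0.651 and 11.5 ± 0.637 CPM in the same order, adjusted p 8.4e-04). GATA3, a transcription factor of epithelial and T cell lineages, rose by 0.56 (27.8 ± 1.40 CPM in knockdown and 18.8 ± 0.855 CPM in control libraries, adjusted p 1.6e-06), and GATA2, named after its values were seen, by 0.85 (adjusted p 0.0234). Of 17 tested TGF-beta target genes 2 rose and 6 fell (median log2 change -0.11). The falls include BMP1, also counted under proprotein processing, and COL1A1, also counted among the fibroblast markers. FN1, which encodes the matrix protein fibronectin, had a log2 change of 0.89 (SE 0.0352, adjusted p 2.2e-12). BHLHE40, a helix-loop-helix repressor, fell by 0.82 (39.1 ± 2.28 CPM in knockdown and 69.2 ± 3.02 CPM in control libraries, adjusted p 1.7e-09) and KLF10, the TGF-beta-inducible early gene, by 0.65 (33.8 ± 0.884 and 53.1 ± 2.62 CPM in the same order, adjusted p 3.0e-08).

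As a description of which genes had the most similar profile over the 8 libraries, the highest Pearson correlations of log2 CPM with BMP7 were those of SERPINA1 (0.996), SERPINB8 (0.995), TRIM2 (0.994) and ITPRIPL2 (0.990). All 4 were lower in the knockdown group, and these correlations mostly restate the difference between the groups. For SMAD6 they were SULT1A4 (0.973), PCLAF (0.967), NCOA7 (0.960) and BRCA1 (0.960), all higher in the knockdown group. SULT1A4 has a near-identical copy, SULT1A3, so its count is uncertain.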

How the data were processed

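The deposited count table holds the authors' raw counts per gene for polyA RNA of KYSE150 cells in 8 libraries, 4 with BOLA3-L knockdown and 4 controls, sequenced as 150 bp paired-end reads and filtered with fastp, per the labels. The genome build is hg38, per the submitters' processing notes; of the aligner, the counting tool, the annotation release and the use of strand, each is not given in the sources used here. A second deposited table holds FPKM computed by the authors; all 110558 of its 110558 values above 0 equal the count scaled by library total and 1 length per gene (tolerance 1e-06), so it is not independent evidence and was used for levels between genes and as an alternative.

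filterByExpr left 11841 genes, and edgeR's robust quasi-likelihood F-test with TMM factors compared the groups, with Benjamini-Hochberg adjustment at 0.05 over all of them. CPM are TMM-scaled. The SE of each log2 change was derived by dividing its size by the root of the F statistic. Single genes also had an exact two-sided permutation test on log2 CPM (prior count 2) over 70 assignments. Counts of 3 in a library served as the floor. Replicates of a group differed by more than sampling noise. The chi-square per degree of freedom was 16.1 to 18.6 in pairs with BOLA3-L knockdown replicate 1 and 2.97 to 4.40 in all other pairs.

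The 10 genes, the pathway and marker lists, the tests and the alternatives were chosen with earlier results of these data known. The text names all 10 genes, BOLA3, of each list up to 3 called genes with the smallest p, and for BMP7 and SMAD6 the 4 most correlated genes; others are named as such or for context. Shared sequence was measured in 75-base windows every 25 bases of each gene's longest GENCODE v29 transcript, searched in the transcripts of other genes. That longest transcript also gave GC content (11584 tested genes). Gene coordinates and promoters came from RefSeq on GRCh38.p14. The alternatives were RLE and upper quartile factors, no filter, a minimum of 1 CPM in 4 libraries, a replicate block, each library left out, DESeq2, limma on log2(FPKM + 1) or log2(FPKM + 0.1) for genes reaching 0.5 FPKM in 4 libraries and on log2(FPKM + 1) for all genes, and 2 chosen after seeing the data: offsets corrected for GC content (spline with 5 degrees of freedom), with and without BOLA3-L knockdown replicate 1. The fit was tested on simulated counts. Calculations used Python 3.11.15 (pandas 2.3.3, numpy 2.4.6, matplotlib 3.10.9, scipy 1.17.1) and R 4.3.3 (DESeq2 1.42.0, edgeR 4.0.16, limma 3.58.1).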

Additional observations from a re-analysis of the deposited data

Results flagged for a closer look

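Of 80 groups of 4 libraries examined, 1 for each named gene and condition, 3 held a library far from the other 3 of its group by Dixon's ratio, while chance alone gives about 1 in 20. ID3 had 22.1 CPM in BOLA3-L knockdown replicate 1, against 27.8 to 28.0 CPM in the other knockdown libraries. FSTL3 had 32.5 CPM in the same library, against 40.1 to 41.2 CPM in the others. ENG had 3.98 CPM in control replicate 2, against 2.61 to 2.77 CPM in the other controls, and every control value was above the knockdown range of 1.16 to 1.60 CPM.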

How the results depend on the processing

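Over all alternatives, 165 values of the 9 tested genes were recomputed, of which 159 kept their direction and side of the threshold, 4 lost the call (BMP2 and SMAD6, each when replicate 2 of either group was left out), 2 gained it (INHBA) and 0 changed direction. The number of the 10 genes that rose was 1, with a range of 0 to 2 when 1 library was left out (0 when replicate 2 of either group was left out, 2 without BOLA3-L knockdown replicate 1), and it was 2 under GC-corrected offsets without BOLA3-L knockdown replicate 1. The number that fell was 2 or 3 throughout; BMP2 was not tested under the minimum of 1 CPM or of 0.5 FPKM. BMP7 was called in all 19 alternatives, at -1.56 to -0.85, the smallest size being that on log2(FPKM + 1), which shrinks low genes. Over the 29 named pathway genes, 503 of 547 values kept their call, 44 lost it and 0 changed direction.

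Numbers were not found to pair libraries, since the deviations of same-numbered libraries correlated at -0.0444 to 0.0876. With the replicate block, 1 of the 10 genes rose and 3 fell, and over all genes 1656 rose and 1736 fell; TLL2 lost its call (adjusted p 0.0589). Over all genes the counts ran from 1409 to 2526 rises and from 1339 to 2555 falls, with 2526 and 2555 without BOLA3-L knockdown replicate 1. Falls outnumbered rises in the fit reported here but not under upper quartile factors (1897 rises, 1724 falls), limma on log2(FPKM + 1) with a minimum (1870 and 1385), log2(FPKM + 0.1) (1874 and 1384) or no minimum (1716 and 1339), no filter (1787 and 1783) or without control replicate 2 (1422 and 1419). Depth limits BMP2, BMP4 and ID2, each under 40 counts in every library.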
